A study of Mus musculus with 6 samples.

Results

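The genes described here are the heat shock proteins and the DNAJ proteins, their largest group of partners. They were taken from the deposited expression table by symbol: Hspa, Hspb, Hspd, Hspe and Hsph with a number, Hsp90a, and Dnaja, Dnajb and Dnajc with a number, leaving out Hspa5 and Dnajc19. The rule used no measured value and found 85 of 56748 genes, of which 69 carry the name of a protein-coding family member and 16 are named as pseudogenes or related sequences. RNA was sequenced from wild-type (WT) mouse airway basal cells, isolated from the trachea and grown for 4 days with inhibitors, in 2 groups of 3 libraries each. One group was given UK-5099, which blocks pyruvate import into mitochondria, and the other Y-27632, a protein kinase inhibitor, with A8301 and DMH-1, which block TGF-beta and BMP type I receptors. There was no untreated group, so each difference lies between the treatments and does not say under which of them a gene moved. The labels give no dose, strain, age or sex, leave it unsaid whether Y-27632 was also present beside UK-5099, and do not describe replicates as different animals or cultures. The p-values therefore reflect the spread among these 6 samples, and that spread may be technical.

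Heat shock proteins are molecular chaperones, which hold, fold and release other proteins. An HSP70 protein binds exposed hydrophobic stretches in an ATP-driven cycle: DNAJ proteins deliver the client and stimulate ATP hydrolysis, HSP110 proteins and other exchange factors release the ADP, and HSP90 takes on late folding intermediates such as kinases and receptors. Small heat shock proteins hold unfolding proteins without ATP, and HSP60 with its lid HSP10 encloses proteins in the mitochondrial matrix. Many of these genes are induced by the transcription factor HSF1, which binds heat shock elements, inverted repeats of the unit GAA upstream of its targets.

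The largest called changes among the members were those of the inducible cytosolic HSP70 genes, which were lower, and of the small heat shock gene Hspb1, which was higher. Hspa1b was 2.97-fold and Hspa1a 2.86-fold lower with UK-5099, and the HSP110 genes Hspa4l and Hsph1 were 1.9-fold and 1.69-fold lower. Hspb1 was 2.65-fold higher, and the mitochondrial chaperonin genes Hspe1 and Hspd1 were 1.62-fold and 1.37-fold higher. Of 12 stress-inducible or core cytosolic members, 3 were higher, 6 lower and 3 not called. Over all genes tested, 27.2% were called higher and 26.6% lower, so calls in both directions are no result about these 12.

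Promoter stretches are shown because the heat shock element is the site through which HSF1 acts. They are those of Hspa1a, Hspa1b, Hsph1, Hspb1 and Hspe1, and of Dnajb6 as a further carrier of the longer element described next. All of these genes hold a match, so they do not stand for every gene with a large change. No match was found for Hspa4l, Dnajc17 and Hspb11, whose log2 fold changes of -0.93, 0.77 and 0.71 were larger in size than that of Hspe1. Promoter sequences were at hand for 55 of the 85 genes, and whether they include Hspa4l, Dnajc17 and Hspb11 is not given here. Hspa1a, Hspa1b and Hspb1 are given from 120 to 21 bases before the RefSeq transcription start. For Hsph1, Hspe1 and Dnajb6, where GENCODE also annotates exons in that stretch, 30 bases around the matches are given. All read 5′ to 3′ on the gene's strand and come from the RefSeq promoter table of build GRCm38.p6. Capitals mark every stretch that spells GAANNTTC or TTCNNGAA, a 2-unit inverted repeat that reads as an element of 2 GAA units. The positions are chr17:34972177-34972276, minus strand for Hspa1a, chr17:34959259-34959358, minus strand for Hspa1b, chr5:149636357-149636386, minus strand for Hsph1, chr5:135887799-135887898, plus strand for Hspb1, chr1:55088053-55088082, plus strand for Hspe1 and chr5:29735843-29735872, plus strand for Dnajb6. All lie upstream of the RefSeq start from which they are counted.
Hspa1a: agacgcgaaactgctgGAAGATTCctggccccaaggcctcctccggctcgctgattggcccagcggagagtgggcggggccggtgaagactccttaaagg
Hspa1b: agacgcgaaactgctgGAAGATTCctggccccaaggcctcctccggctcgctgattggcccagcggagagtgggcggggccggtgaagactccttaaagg
Hsph1: tccattgggtagaatctTTCTCGAAggctc
Hspb1: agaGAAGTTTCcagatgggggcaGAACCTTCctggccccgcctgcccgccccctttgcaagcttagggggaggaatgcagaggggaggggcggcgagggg
Hspe1: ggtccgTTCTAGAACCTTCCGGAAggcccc
Dnajb6: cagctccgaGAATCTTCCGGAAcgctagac

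The Hspa1a and Hspa1b stretches were identical, and over the whole window from 250 bases before to 50 bases after the start the genes differed at 4 of 300 bases. Each held 1 match, GAAGATTC, starting 104 bases before the start. Hspb1, which moved in the opposite direction, held 2 matches, and Hspe1 held overlapping matches that form 1 run of 18 bases. The start of Hspe1 lies 216 bases from one annotated start of Hspd1 on the opposite strand, and the run in Hspe1 is the same DNA as the match found in Hspd1.

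A longer form of the element, GAANNTTCNNGAA with 3 units, was searched on both strands in the same 300-base windows. RefSeq windows were at hand for 55 of the 85 genes, matched by symbol, and Hsp90aa1, Hsp90ab1, Hspa8 and Hspa13 were not among them. The 3-unit form occurred in 4 of the 55, or 7.27%, namely Dnajb6, Hspd1, Hspe1 and Hsph1, against 0.662% of the 27025 genes in the table. The 2-unit form, which every 3-unit match also contains, occurred in 16 of the 55, or 29.1%, against 17% of all genes. Matches stood on both sides of the comparison: the 2-unit form was in 5 of 16 genes that were higher with UK-5099, 6 of 12 that were lower and 3 of 17 that passed no test. The 3-unit form was in 2 of the 16, 2 of the 12 and 0 of the 17. These counts are not of independent sites. The 2 of the 16 are Hspd1 and Hspe1, whose matches are the same DNA. Hspa1a and Hspa1b, with nearly identical windows, both count among the 6 lower genes with the 2-unit form. The CCAAT box, a general promoter motif searched as CCAAT on both strands, was in 40% of the members' windows and 41.1% of all genes. A match describes letters in the window and does not show that HSF1 was bound there.

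**Figure D1:**
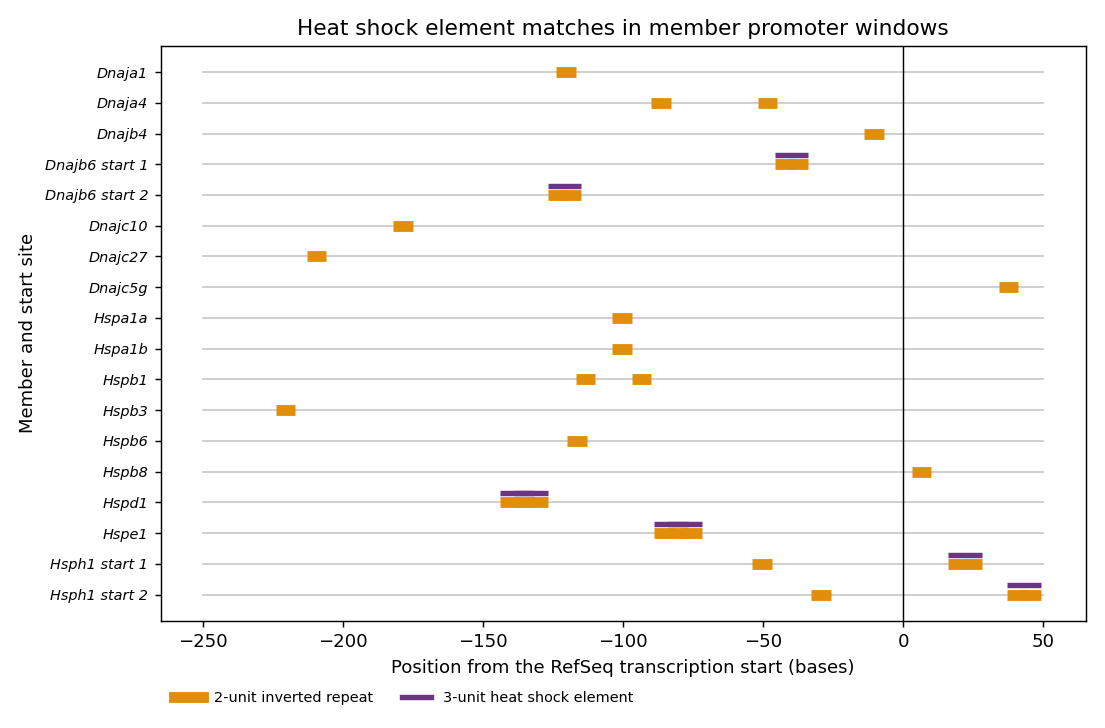
Positions of heat shock element matches in the RefSeq promoter windows of the 16 members that hold one. The horizontal axis is the distance from the transcription start in bases, orange bars are 2-unit matches and purple bars 3-unit matches, and each grey line is 1 annotated start. Hspa1a and Hspa1b carry a single match at the same distance, and the 3-unit matches of Hsph1 lie after its starts.

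Of the 85 genes, 61 passed the filter of a mean of 10 normalized counts over the 6 libraries and were tested. A normalized count is a gene's read count divided by the authors' size factor for that library. The 13 protein family members under the filter were Dnajb13, Dnajb3, Dnajb7, Dnajb8, Dnajc22, Dnajc5b, Dnajc5g, Hspa12a, Hspa12b, Hspb2, Hspb3, Hspb7 and Hspb9, and Dnajb8, Dnajc5g, Hspb3 and Hspb7 had no read in any library. Among the genes that passed, 22 were higher with UK-5099, 14 were lower and 25 did not pass the adjusted threshold of 0.05, in limma on the log2 of the normalized count plus 1 with Benjamini-Hochberg adjustment over all 15704 genes tested. Over all genes tested, 53.8% were called, 27.2% as higher and 26.6% as lower, so a share of called members near these values is no result about the family. Centring every library's genes on their median, or rescaling to the upper quartile, moved all genes by -0.09 on the log2 scale and turned the split of 22 higher and 14 lower into 17 higher and 18 lower. The shares of all genes called in each direction under the rescalings are not given here. Because all genes shifted alike, the changes of split under rescaling, here and in the lists below, are no result about the members or lists. Called changes of at least 1.5-fold were found for 9 of the 61 genes, against 21.7% of all genes. The groups did not overlap for 44 of the 61, against 60.8% of all genes, and the median log2 fold change was 0.09, against -0.000494 over all genes.

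Among the basal cell markers, 7 of 10 were higher, 2 lower and 1 not called, and their summed level ran from 335421 to 361482 normalized counts with UK-5099 and from 170780 to 185713 with the 3 inhibitors, so defining markers of the labelled cell type were detected in both groups. The lower ones were Ngfr and Aqp3, with log2 fold changes of -2.20 and -0.43. Large parts of the sum were Krt5, with means of 118708 against 39445.5, and Krt14, with 70521 against 12457. Secretory cell markers ran the other way: of 7, the 4 that were tested were all lower, and the sum was 6814 to 8583 against 46162 to 48739. Of the 4, Muc5b passed the filter only through the 3-inhibitor group, with means of 8.13 against 29.6 normalized counts. Its call is therefore no support for the list. All 16 mitosis markers were higher, with sums of 31352 to 33267 against 16190.5 to 17516. Beside these marker counts, 27.2% of all genes tested were called higher and 26.6% lower. Of 8 multiciliated cell markers 4 were tested and 2 were higher, with sums of 198 to 229 against 153 to 185. Fibroblast markers summed to 6.50 to 14.6 against 8.25 to 10.05 normalized counts with Col1a2, Col3a1 and Lum at 0, and no endothelial marker passed the filter, with Cdh5 and Emcn at 0. Muscle and neuroendocrine markers were likewise under the filter throughout, and of 5 leukocyte markers only Cd68 was tested and did not pass. Under the filter, Lyz2 had 0, 0.928 and 0 normalized counts with UK-5099, against 11.34, 20.55 and 9.135 with the 3 inhibitors. Csf1r had 0 in every UK-5099 library, against 9.277, 9.83 and 1.827. Ptprc and Cd3e reached at most 2.681 in any library. Xist was higher with UK-5099 (log2 fold change 0.77, as are the unlabelled values before an adjusted p from here on; adjusted p = 1.68e-07) and the Y-linked Ddx3y lower (-0.82, adjusted p = 8.94e-07), both of them expressed in every library. The part of cell make-up, division rate or sex of the animals in the results below was not tested. In bulk RNA, fewer cells of a type and less RNA per cell cannot be told apart.

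Summed by family, the chaperonin and small heat shock messages held a larger share of the RNA with UK-5099 and the HSP110 messages a smaller one. The 69 family members held 1.150% ± 0.0153 of the normalized counts under UK-5099, against 1.102% ± 0.0126 under the 3 inhibitors (SD, 3 libraries each). HSP60 and HSP10 together held 0.0613% ± 0.00184 against 0.0432% ± 0.00118, a ratio of 1.42, and the small heat shock proteins 0.0377% ± 0.00105 against 0.0243% ± 0.000425, a ratio of 1.55. Within the small heat shock sum, Hspb1 had means of 5963 normalized counts with UK-5099 against 2250 with the 3 inhibitors. Hspb8 had 2836 against 3429, so the larger sum rests mainly on Hspb1. HSP90 held 0.398% ± 0.00943 against 0.337% ± 0.00670, a ratio of 1.18. The HSP110 share was lower, at 0.0634% ± 0.00228 against 0.0870% ± 0.00233, a ratio of 0.729. HSP70 was at a ratio of 0.950, HSP70 with HSP110 at 0.904, DNAJA at 1.09 and DNAJB at 0.899. In each of these families every library of one group lay above every library of the other, which in an exact two-sided permutation test gives p = 0.1, the smallest that 3 against 3 allows. For DNAJA this did not hold for summed counts after rescaling. Its ratio was 1.028 under upper-quartile rescaling (exact permutation p = 0.2) and 1.026 under median centring (exact permutation p = 0.3). DNAJC, the largest family with 27 genes, held 0.135% in both groups (exact permutation p = 1).

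**Figure D2:**
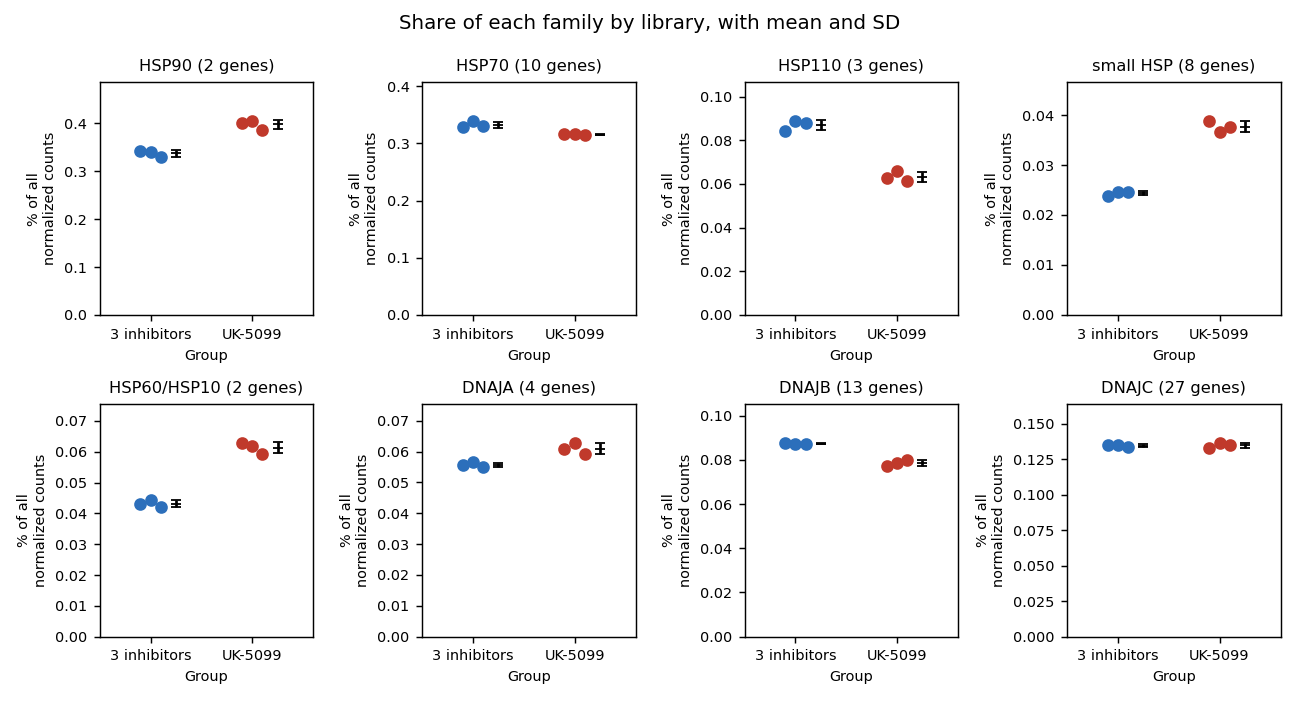
Share of all normalized counts held by each chaperone family in each library, in percent, with a point per library and, beside the points, the group mean with its SD. Axes start at 0. The small heat shock and HSP60/HSP10 families sit higher with UK-5099, HSP110 sits lower, and the DNAJC points of both groups intermingle. In the small heat shock family the difference rests mainly on Hspb1.

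HSP70 proteins bind unfolded clients throughout the cell. Hspa1a and Hspa1b encode nearly the same inducible cytosolic HSP70. Hspa1b (ENSMUSG00000090877) stood at 3601, 3531 and 3622 normalized counts in the UK-5099 libraries and at 10254, 11047 and 10693 in the 3-inhibitor libraries. The log2 fold change was -1.57 ± 0.04 (SE), with an adjusted p of 1.44e-10. Hspa1a had 1466, 1419.9 and 1531 against 4089, 4286 and 4239.7 normalized counts, a log2 fold change of -1.51 ± 0.04 and an adjusted p of 4.07e-10. For both genes the UK-5099 libraries were far below the 3-inhibitor libraries and the groups did not overlap. Their longest open reading frames in build GRCm38.p6 are 99.5% identical, so reads from the coding part can be shared between the copies and the split between them is uncertain, whereas the whole transcripts are 88.8% identical. The ratio of Hspa1b to Hspa1a was 2.44 ± 0.0629 with UK-5099 and 2.54 ± 0.0369 with the 3 inhibitors.

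Hspa8, the constitutive cytosolic HSP70, went the other way. It had 34442, 33406 and 34086 normalized counts with UK-5099, against 29164, 30371 and 28583 with the 3 inhibitors, a log2 fold change of 0.21 ± 0.04 with an adjusted p of 0.00145. All of its UK-5099 libraries were above all 3-inhibitor libraries. Hspa1b therefore stood at 0.105 ± 0.000878 of Hspa8 with UK-5099, against 0.363 ± 0.0113 with the 3 inhibitors, as a ratio of normalized counts. Hspa14, a ribosome-associated HSP70, was higher (0.57, adjusted p = 8.39e-06), as was Hspa13 (0.32, adjusted p = 0.000314), which is bound to the endoplasmic reticulum. Hspa9, the mitochondrial HSP70, had 34474, 34476 and 34516 against 34801, 34282 and 32965 normalized counts, a log2 fold change of 0.02 ± 0.04 and an adjusted p of 0.717. Its groups overlapped. Hspa2 and Hspa1l did not pass either, at log2 fold changes of -0.21 and 0.52. Hspa2 was called lower under upper-quartile rescaling (adjusted p = 0.0367) and median centring (0.0344), and Hspa1l was near the filter with means of 13.9 and 9.84 normalized counts.

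HSP110 proteins release ADP from HSP70 so that the client can leave. Hspa4l had 5159, 5834 and 5157 normalized counts with UK-5099, against 9866, 10711 and 10115 with the 3 inhibitors, a log2 fold change of -0.93 ± 0.05 with an adjusted p of 9.42e-08. Hsph1, which is heat-inducible, had 1668, 1670.5 and 1679.5 against 2845, 2799.8 and 2859, a log2 fold change of -0.76 ± 0.04 with an adjusted p of 4.01e-08. Both genes were lower in every UK-5099 library, and the Hsph1 libraries of each group lay close together. Hspa4, the third member, had a log2 fold change of 0.05 ± 0.04 and did not pass (adjusted p = 0.257).

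**Figure D3:**
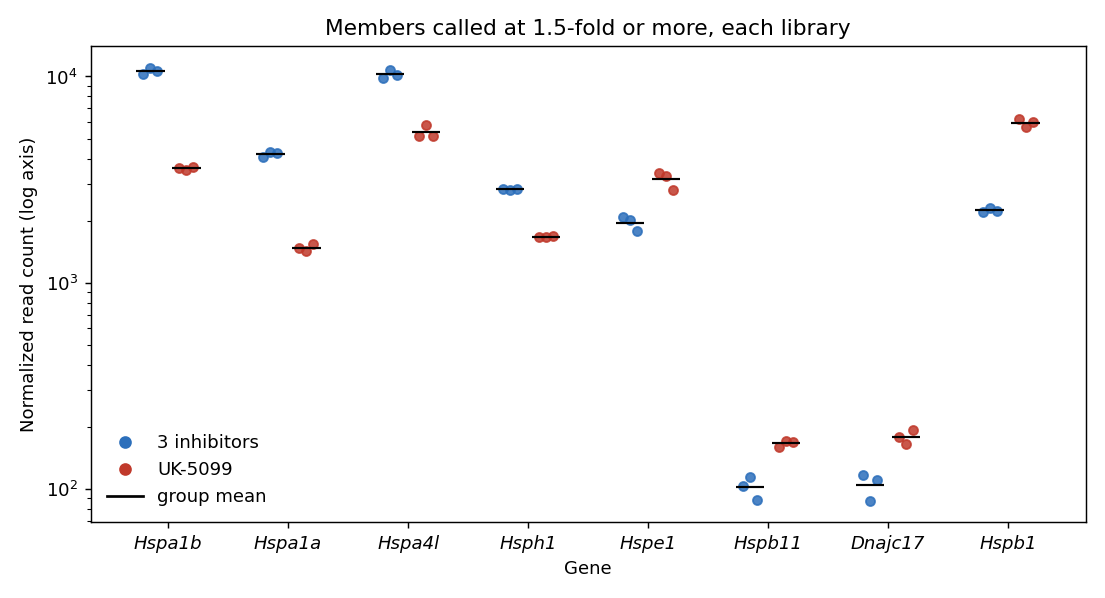
Normalized read counts (log axis) of 8 of the 9 members called at 1.5-fold or more, with 1 point per library, blue for the 3 inhibitors and red for UK-5099, and a line at each group mean. The red points of Hspa1b, Hspa1a, Hspa4l and Hsph1 lie below the blue ones and those of the other genes lie above them, with no overlap for any of the 8.

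Among the tested members, the HSP90 genes had the most normalized counts per kb of annotated exon. The length used was the union of exons over all annotated transcripts. It can exceed the transcript expressed here, so the order is approximate. Divided by exon length, Hsp90ab1, the constitutive form, ranked first among the tested members with 16627 normalized counts per kb with UK-5099 and 15338 with the 3 inhibitors, followed in both groups by Hsp90aa1, the inducible form, then Hspa9 and Hspa8. The order below these differed between the groups. Hspb1 came next with UK-5099, at 5783 per kb against 4383 for Hspd1 and 1279 for Hspa1b, whereas with the 3 inhibitors Hspa1b stood at 3805, Hspd1 at 3201 and Hspb1 at 2182. Hsp90aa1 had 46942, 47148 and 43458 normalized counts with UK-5099, against 35837, 36154 and 34150.5 with the 3 inhibitors, a log2 fold change of 0.37 ± 0.05 with an adjusted p of 5.66e-05. Its groups did not overlap. Hsp90ab1 had 49959, 49231 and 50399.8 against 47983, 45831 and 44181, a log2 fold change of 0.12 ± 0.05, and missed the threshold with an adjusted p of 0.0548, although its groups did not overlap. It passed in 4 of 16 alternative settings, among them that leaving out UK-5099 replicate 3 (adjusted p = 0.0287) and limma-voom on the reads (adjusted p = 0.00493).

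Among the small heat shock proteins, Hspb1 (HSP27, which also binds actin filaments) had the largest rise of all the members tested. It stood at 6204, 5699 and 5985 normalized counts with UK-5099, against 2211, 2309 and 2229 with the 3 inhibitors, a log2 fold change of 1.41 ± 0.04 with an adjusted p of 6.77e-10. Every UK-5099 library was above every 3-inhibitor library. Hspb8, which works with Bag3 to route misfolded proteins to autophagy, was lower, with 2859, 2768 and 2882 against 3415, 3439 and 3435, a log2 fold change of -0.27 ± 0.04 and an adjusted p of 0.000103. The ratio of Hspb1 to Hspb8 was 2.102 ± 0.0596 with UK-5099 and 0.656 ± 0.0135 with the 3 inhibitors. Hspb11, a subunit of the ciliary transport machinery despite its name, had 159.5, 169.8 and 168 against 103, 113 and 87.7 normalized counts, a log2 fold change of 0.71 ± 0.13 with an adjusted p of 0.000641. Hspb6, with a log2 fold change of 0.29 ± 0.22, did not pass (adjusted p = 0.295) but passed without UK-5099 replicate 3 (adjusted p = 0.0121).

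Mitochondrial members work on proteins that enter the organelle. Of 9 mitochondrial members 5 were higher, 0 lower and 4 not called, with a median log2 fold change of 0.20. Under upper-quartile rescaling or median centring 4 were higher and 0 lower. Over all genes tested 53.8% were called, so the number of calls here is no result about these members. Hspd1 (HSP60) had 11767, 11426 and 11545 normalized counts with UK-5099, against 8467, 8704 and 8201 with the 3 inhibitors, a log2 fold change of 0.45 ± 0.04 with an adjusted p of 2.03e-06. Hspe1 (HSP10) had 3403, 3272 and 2829 against 2072, 2020.5 and 1778, a log2 fold change of 0.69 ± 0.07 with an adjusted p of 1.07e-05. The groups did not overlap for either gene. Dnaja3, the main J protein of the matrix, was higher by 0.20 (adjusted p = 0.00154) and Dnajc11, a partner of the cristae-organising complex, by 0.24 (adjusted p = 0.00102). Dnajc4 was higher by 0.26 with an adjusted p of 0.0367. That call was lost without UK-5099 replicate 1 (adjusted p = 0.0753), UK-5099 replicate 2 (0.104), 3-inhibitor replicate 1 (0.0983) or 3-inhibitor replicate 2 (0.132), under both rescalings, and with the replicate number as a block (0.0542). Dnajc15, Dnajc28 and Dnajc30 did not pass.

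The DNAJA proteins, which resemble the bacterial DnaJ most closely, include the mitochondrial Dnaja3 above. Of the 4, 3 were higher and 1 lower, beside 27.2% higher and 26.6% lower over all genes tested. Dnaja1 had 4161, 4343 and 4020.3 normalized counts with UK-5099, against 4928, 5090.1 and 4755 with the 3 inhibitors, a log2 fold change of -0.24 ± 0.04 with an adjusted p of 0.000756. All of its UK-5099 libraries were lower. Its relatives Dnaja2 (0.33, adjusted p = 2.57e-05) and Dnaja4 (0.44, adjusted p = 0.000117) were higher.

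Of 9 DNAJB genes tested, limma on the log values called 0 higher, also at an unadjusted p under 0.05, and 4 lower, and 5 did not pass, with a median log2 fold change of -0.17. The shares over all genes tested were 27.2% higher and 26.6% lower. Dnajb6, a suppressor of protein aggregation, was lower, with a log2 fold change of -0.31 (adjusted p = 3.46e-05). Dnajb9, Dnajb11 and Dnajb12 serve the endoplasmic reticulum and had log2 fold changes of -0.21, -0.19 and -0.17 (adjusted p = 0.00592, 0.01 and 0.0304). The Dnajb11 call was lost without 3-inhibitor replicate 1 (adjusted p = 0.0558). The Dnajb12 call was lost without any 1 library except UK-5099 replicate 3, with adjusted p from 0.0646 to 0.102. Dnajb1, the main heat-inducible HSP40 and partner of Hspa1a, had 2587, 2626 and 2849.9 normalized counts with UK-5099, against 2536, 2563 and 2476 with the 3 inhibitors. Its groups did not overlap, but the log2 fold change was only 0.09 ± 0.05 and did not pass (adjusted p = 0.134). limma-voom on the recovered reads called it higher, at 0.11 (adjusted p = 0.0443). Dnajb4, another heat-inducible member, stood at 0.02 (adjusted p = 0.735).

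The DNAJC proteins have a J domain but otherwise differ in build and place. Of 24 tested, 10 were higher, 3 lower and 11 not called, and under upper-quartile rescaling or median centring 5 were higher and 5 lower. Of those of the nucleus, ribosome and RNA, 4 of 6 were higher, 1 lower and 1 not called, with a median of 0.36. These counts stand beside 27.2% higher and 26.6% lower over all genes tested. Dnajc17, a nuclear member, had 179, 164 and 192 normalized counts with UK-5099, against 116, 87.6 and 109.6 with the 3 inhibitors, a log2 fold change of 0.77 ± 0.14 with an adjusted p of 0.000531, and its groups did not overlap. Dnajc8, associated with the spliceosome, was higher by 0.52 (adjusted p = 1.03e-05), and Dnajc2, which sits on the ribosome together with Hspa14, by 0.43 (adjusted p = 1.52e-05). Dnajc9, a histone chaperone, had 574, 614 and 566 against 501, 469 and 512, a log2 fold change of 0.24 ± 0.07 with an adjusted p of 0.00878. Its groups did not overlap, but its call was lost under upper-quartile rescaling (adjusted p = 0.0653) and median centring (0.0662). Dnajc21, a ribosome assembly factor, was lower, with a log2 fold change of -0.18 (adjusted p = 0.0112), and its call was lost without 3-inhibitor replicate 1 (0.0553).

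Members of vesicle traffic were split. Dnajc5, the cysteine string protein of secretory vesicles, was lower, with a log2 fold change of -0.49 (adjusted p = 7.94e-06), and Dnajc13, an endosome protein, was lower as well (-0.24, adjusted p = 0.000241). Dnajc6, which strips clathrin from vesicles with Hspa8, was higher by 0.50 (adjusted p = 0.00348). In the endoplasmic reticulum, 3 of 10 members were higher, 3 lower and 4 not called, beside 27.2% higher and 26.6% lower over all genes tested. Under both rescalings 1 was higher and 5 lower. The higher ones were Hspa13, Dnajc1 (0.19, adjusted p = 0.00972) and Dnajc10, a disulfide reductase (0.16, adjusted p = 0.0166). The Dnajc10 call was lost without UK-5099 replicate 1 (adjusted p = 0.0551) or 3-inhibitor replicate 3 (0.0864) and under both rescalings, and the Dnajc1 call under both rescalings. Dnajc3, an inhibitor of the kinase PERK, did not pass (-0.07, adjusted p = 0.251) but was called lower under upper-quartile rescaling (0.0177) and median centring (0.017), and so was Dnajc16 (0.0146 and 0.0126). Dnajc7, which binds HSP70 and HSP90 at once, was higher by 0.11 (adjusted p = 0.0421), a call lost in 8 of the 16 alternatives with adjusted p up to 0.686, among them the fits without UK-5099 replicate 1 (0.158) and without each 3-inhibitor replicate (0.0904, 0.0989 and 0.122).

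**Figure D4:**
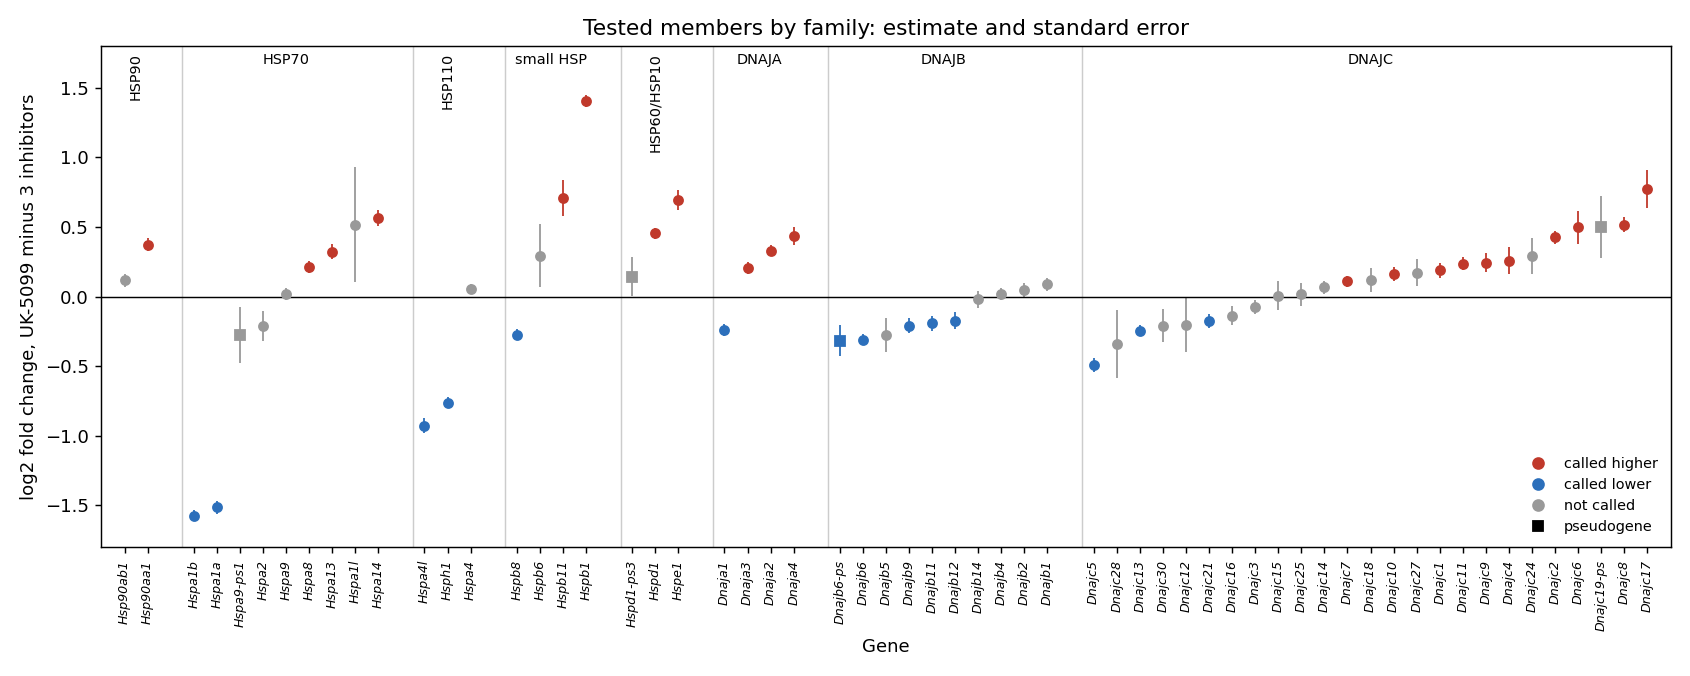
Log2 fold change, UK-5099 minus 3 inhibitors (vertical axis), of the tested members by family, 1 related sequence left out, with the standard error of the fit as a bar, red for called higher, blue for called lower, grey for not called and squares for pseudogenes. Hspa1b and Hspa1a lie lowest and Hspb1 highest, while among the DNAJ genes only Dnajc17 lies beyond 1.5-fold.

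Among the 16 pseudogenes and related sequences, 5 passed the filter, 1 was called higher and 1 lower, and 3 were not called. Dnajb6-ps is 99.1% identical to Dnajb6, so reads of the gene and its copy cannot be told apart with certainty. It had a log2 fold change of -0.32 (adjusted p = 0.0317), beside -0.31 for Dnajb6. Its call was lost without UK-5099 replicate 1 (0.0511), UK-5099 replicate 3 (0.0668), 3-inhibitor replicate 2 (0.127) or 3-inhibitor replicate 3 (0.0813). Hspd1-ps3, Hspa9-ps1 and Dnajc19-ps did not pass.

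HSF1 is controlled mostly after translation, by its release from chaperones. No difference in its message was called: Hsf1 had 779, 820.4 and 792 normalized counts with UK-5099, against 815, 759.6 and 771 with the 3 inhibitors, a log2 fold change of 0.03 ± 0.06 (adjusted p = 0.705). Hsf2, a related factor, stood at -0.16 ± 0.06 (adjusted p = 0.0536) and passed without UK-5099 replicate 3 (0.0226) and under both rescalings. Of 5 tested genes of the factors and their regulators, only Hsf4 was called (0.70, adjusted p = 0.0368), and that call was lost in 8 of the 15 alternatives in which it was tested, among them the fits without UK-5099 replicate 1 (0.118), UK-5099 replicate 3 (0.0564), 3-inhibitor replicate 1 (0.0755) and 3-inhibitor replicate 3 (0.118). Under both rescalings 0 of these 5 were higher and 1, Hsf2, lower. Of 9 tested alpha crystallin and other stress-inducible genes linked to HSF1, 4 were higher and 4 lower, and under both rescalings 2 were higher and 4 lower. The shares over all genes tested were 27.2% higher and 26.6% lower. Atf3, a stress transcription factor (-0.67, adjusted p = 4.73e-07), and Sqstm1, an autophagy receptor (-0.50, adjusted p = 2.32e-06), were among the lower. One of the 4 higher genes, Serpinh1, a collagen chaperone, passed the filter only through the UK-5099 group, with means of 19.6 ± 4.09 against 2.19 ± 0.441 normalized counts, so its call is no support for the list.

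Exchange factors and other partners set the pace of the HSP70 cycle. Of 18 exchange factors and other HSP70 partners, 2 were higher, 7 lower and 9 not called, with a median log2 fold change of -0.08. Under both rescalings 1 was higher and 10 lower. The shares over all genes tested, as deposited, were 27.2% higher and 26.6% lower. Bag3, an exchange factor that links HSP70 to Hspb8, had 1127, 1079 and 1194 normalized counts against 1763, 1578 and 1632, a log2 fold change of -0.55 ± 0.06 with an adjusted p of 9.15e-06, and its groups did not overlap. Gak, which uncoats clathrin like Dnajc6, was lower (-0.49, adjusted p = 1.74e-06), as were the mitochondrial exchange factor Grpel2 (-0.42, adjusted p = 5.58e-06) and the endoplasmic reticulum exchange factor Hyou1 (-0.28, adjusted p = 0.00049). The higher ones were Bag2 (0.32, adjusted p = 0.00964) and Hscb, a J protein of iron-sulfur cluster assembly (0.29, adjusted p = 0.0204), whose call was lost without UK-5099 replicate 1 (0.0514), 3-inhibitor replicate 2 (0.064) or 3-inhibitor replicate 3 (0.0879).

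Of 19 tested HSP90 paralogs and cochaperones, 11 were higher, 2 lower and 6 not called, with a median of 0.15. Under both rescalings 9 were higher and 4 lower. The shares over all genes tested, as deposited, were 27.2% higher and 26.6% lower. Ppid (0.72, adjusted p = 4.3e-07), the mitochondrial HSP90 Trap1 (0.62, adjusted p = 8.77e-07) and Ptges3, the p23 cochaperone (0.38, adjusted p = 1.51e-05), were higher. Stip1, which hands clients from HSP70 to HSP90, had 3750.1, 3567 and 3695 normalized counts with UK-5099, against 2997, 2963 and 2847 with the 3 inhibitors, a log2 fold change of 0.32 ± 0.04 with an adjusted p of 4.83e-05. Its groups did not overlap. The lower ones were Tsc1 (-0.30, adjusted p = 0.00168) and the kinase cochaperone Cdc37 (-0.12, adjusted p = 0.0369), whose call was lost in 7 alternatives, among them the fits without UK-5099 replicate 1 (0.065), UK-5099 replicate 2 (0.0766), 3-inhibitor replicate 1 (0.141) and 3-inhibitor replicate 2 (0.139).

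The cytosolic chaperonin CCT folds actin and tubulin, and prefoldin feeds it. Of their 14 tested genes 13 were higher, 0 lower and 1, Pfdn5, not called, with a median of 0.35. Over all genes tested, 27.2% were called higher and 26.6% lower. Under both rescalings Pfdn5 was called lower (adjusted p = 0.0131 and 0.0131). The smallest adjusted p belonged to Cct8 (0.73, adjusted p = 1.78e-07), Cct6a (0.63, adjusted p = 3.34e-07), Cct7 (0.44, adjusted p = 3.35e-06) and Cct3 (0.44, adjusted p = 3.84e-06). Of 12 mitochondrial proteases and disaggregases, 5 were higher, 1 (Lonp1) lower and 6 not called, with a median of 0.11, and under both rescalings 4 were higher and 2 lower. Clpp, the matrix protease (0.44, adjusted p = 3.98e-05), and the disaggregase Clpb (0.43, adjusted p = 5.45e-05) were among the higher, and Lonp1, the other main matrix protease, stood at -0.21 (adjusted p = 0.00112).

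**Figure D5:**
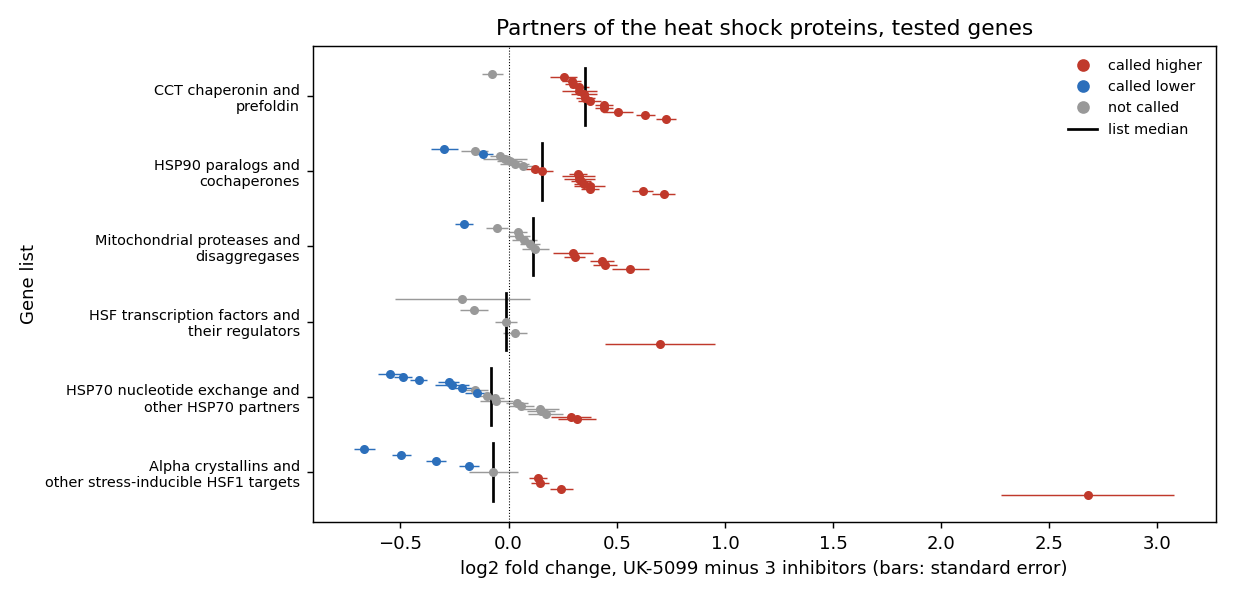
Log2 fold change, UK-5099 minus 3 inhibitors, of each tested gene in 6 lists of chaperone partners, on the horizontal axis, with 1 point per gene, its standard error as a bar, colours for the call and a line at the list median. The CCT and prefoldin points lie above 0 except for Pfdn5, whereas the HSP70 partners and the HSF1-linked genes spread to both sides.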

How the data were processed

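Libraries were made from total RNA of 3 samples of each treatment, per the labels' protocols. Build GRCm39 and the tools HISAT2 2.1.0 and DESeq2 1.36.0 are named, without their roles, per the submitters' processing notes. The sources used here give neither read counter nor annotation. The deposited table holds other than raw counts: per the file headers and values, log2 gene counts after the authors' scaling by library size factors, and a text mark in place of 0. It has 57107 entries, 359 of them repeats of an identifier. Values were raised back to normalized counts. Between 99.988% and 99.992% of nonzero values came out as whole reads to within 0.02, and recovered reads ran from 19909589 to 27037795 per library.

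The 15704 genes whose mean over the 6 libraries reached 10 normalized counts were fitted in limma 3.58.1 under R 4.3.3 (two-sided, without covariates; lmFit, then eBayes with its trend option) on log2(normalized count + 1), with Benjamini-Hochberg adjustment over all of them. Fold changes are on that scale, UK-5099 minus 3 inhibitors. It understates the change of low genes. The steps were tested on simulated data. Family shares were compared by exact permutation tests, and the sums of HSP70 and HSP110 alone were added to the planned joint sum. Members and gene lists were chosen with earlier results of these data known. Values in every library are given for called members of at least 1.5-fold and for a set of core chaperones whatever their result. Other list genes are given by smallest adjusted p. Xist, Ddx3y, Hspb8 and the exceptions Pfdn5, Lonp1, Tsc1, Cdc37, Bag2 and Hscb were named after their values were seen. So were the markers Muc5b, Ngfr, Aqp3, Krt5 and Krt14. Exon lengths, transcripts and promoters came from GRCm38.p6, and no coordinate was carried over to GRCm39. Promoters were matched by symbol, and exon lengths and transcripts by gene identifier. Replicate numbers do not pair the samples by the labels. The results of a few genes are not reported here. The alternatives were 16, given in the closing section. Other software was Python 3.11.15, scipy 1.17.1, pandas 2.3.3, matplotlib 3.10.9 and numpy 2.4.6.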

Additional observations from a re-analysis of the deposited data

How the results depend on the processing

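The alternatives were upper-quartile rescaling, median centring, no low filter, a minimum mean of 50, pseudocounts of 0.5 and 5, limma without the trend, limma with robust estimation, limma-voom with TMM scaling on the recovered reads, a block for the replicate number, and leaving out single libraries, 16 in all. Of the 36 called members, 27 (17 higher and 10 lower) kept their call in every one of the 16, 9 lost it in at least 1 and 0 changed direction. The lost calls were Dnajb11, Dnajb12, Dnajb6-ps, Dnajc1, Dnajc10, Dnajc21, Dnajc4, Dnajc7 and Dnajc9. Of the 25 uncalled members, 10 passed in at least 1 alternative and 10 changed sign in at least 1. Without single libraries the count of higher members ran from 19 to 24 and that of lower members from 11 to 14, and limma-voom gave 24 and 13. Calls gained without 1 library included Dnajb5 (without UK-5099 replicate 1, adjusted p = 0.0496), Dnajc16 (without 3-inhibitor replicate 2, 0.0407), Hspa9-ps1 (without UK-5099 replicate 2, 0.0497) and Dnajc19-ps (without 3-inhibitor replicate 3, 0.0362).

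Upper-quartile rescaling and median centring turned small log2 fold changes of uncalled genes below 0: Dnajb2 to -0.041 and -0.043, Dnajb4 to -0.068 and -0.070, Dnajc14 to -0.020 and -0.023, Dnajc15 to -0.080 and -0.082, Dnajc25 to -0.069 and -0.071, Hsf1 to -0.059 and -0.061, Hspa4 to -0.034 and -0.036, and Hspa9 to -0.066 and -0.068. These turns follow from the shift of all genes by the rescaling. A share of a library's own counts cannot move with a rescaling of that library, so families were rescaled as summed counts: the DNAJC ratio of sums was 0.999 as deposited, 0.941 under upper-quartile rescaling and 0.939 under median centring. The DNAJC ratio of shares, 1.00, ran from 0.994 to 1.01 without single libraries. Leaving out single libraries gave ranges that crossed 0 for Dnajb14 (-0.061 to 0.00837), Dnajc15 (-0.061 to 0.11), Dnajc25 (-0.024 to 0.066), Hspa9 (-0.00219 to 0.037), Hspa9-ps1 (-0.47 to 0.00219) and Hspd1-ps3 (-0.041 to 0.27), and limma-voom gave 0.00853 for Dnajb14. For these the cause was not tested.

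Same-numbered samples of both groups share only a number by the labels. Their deviations from the group mean had correlations of -0.02, 0.12 and -0.09, and those of differently numbered samples ran from -0.198 to 0.193. With 3 samples in each group, these values cannot decide whether samples of both groups came from the same animal or culture. With the replicate number as a block, 21 members were higher and 14 lower, all among the 22 and 14 called without it. Over all genes 8423 were called with the block and 8449 without it. Depth from 19909589 reads a library upward leaves genes near 10 normalized counts, such as Hspa1l, with wide errors.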
